A study of Mus musculus with 24 samples.

Results

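The genes described here mark the alveolar type I (AT1) cell, and 9 of the 23420 genes in each of the 4 tables belong to the set. They were chosen by symbol as AT1 markers: Ager, Hopx, Pdpn, Aqp5, Cav1, Rtkn2, Emp2, Akap5 and Clic5. All 9 were found in every table and all 9 passed the filter on low values in every comparison.

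AT1 cells are the thin, flat epithelial cells that cover most of the gas-exchange surface and lie against the capillaries. They arise from distal progenitors and also from alveolar type II (AT2) cells, which make surfactant. During alveologenesis AT1 cells spread and fold around the secondary septa, and their programme depends on the transcription factor NKX2-1 together with the YAP and TAZ co-activators, which bind DNA through TEAD proteins. ROR2 is a receptor for WNT5A and VANGL2 is a core protein of planar cell polarity, the pathway that orients cells and their cytoskeleton within a tissue.

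RNA was taken from the whole left lung lobe of mice at postnatal day (P) 2 and P5, and every value therefore sums over epithelium, stroma, vessels and blood cells. A Cre driven from the Sox9 locus (Sox9 Cre/+) recombined floxed Vangl2 (Vangl2 f/f) in the first mutant and floxed Ror2 (Ror2 f/f) in the second. Sox9 is active in the distal lung epithelium and also in other tissues such as cartilage. Each mutant and age had 3 lungs and 3 control lungs of its own, which gives 24 lungs in 4 comparisons of 6. The controls are headed WT beside their values and are titled Control(Vangl1/2) for Vangl2 and Control(Ror2) for Ror2. What Vangl1/2 means for the alleles of those lungs is not given in the titles. Whether the controls carried Cre or a floxed allele is not given in the sources used here. Groups follow the titles of the lungs. In 2 of the 4 mutant groups the genotype field disagrees with the title: it names Ror2 f/f for the P5 Vangl2 mutants and Vangl2 f/f for the P2 Ror2 mutants. Values are normalized counts, meaning read counts scaled by the depth of the lung within its own table, and differences are on the scale of log2(normalized count + 1), mutant over control. The p-values measure only the spread between these lungs.

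The Vangl2 transcript was at 148 to 170 normalized counts in the 3 lungs titled as P5 Vangl2 mutants and at 292 to 369 in their controls. At P2 it was at 173 to 241 in Vangl2 mutants and 249 to 302 in controls. These groups did not overlap at either age, although neither difference passed the test (adjusted p = 0.241 at P2 and 0.0604 at P5, limma). The Ror2 transcript of Ror2 mutants overlapped that of controls at P2 (349 to 479 against 451 to 581) and at P5 (362 to 521 against 368 to 597), so whole-lobe RNA did not separate the Ror2 groups by the targeted gene. In P2 Ror2 mutants, whose genotype field names Vangl2 f/f, the Vangl2 transcript was at 208, 251 and 236 normalized counts against 270.2, 291 and 245 in controls, which overlap as well. Neither transcript therefore settles which gene was removed in these lungs, and every P2 Ror2 value rests on their titles. In the first P5 Ror2 mutant lung, Vangl2 was at 177 normalized counts against 265 and 338 in the other mutants. Control replicate 1 of the P5 Ror2 comparison held no reads on any expressed gene of chromosomes 6 to 9, X and Y, or on 72.1% of those of chromosome 5, so Hopx and Cav1 rest on 2 controls there. Xist, which female cells express, was at 11859 normalized counts or more in 0 to 3 lungs of a group and at 283 or less in the others, so sex was not balanced. The other 23 lungs held 16178031 to 21546673 reads on genes.

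The members differ in role and in place. AGER is a receptor for advanced glycation end products, carried on the basal face of AT1 cells, and its gene lies on chr17:34597862-34600936 (mm10, + strand). Podoplanin (Pdpn, chr4:143267431-143299564, - strand) is a mucin-like surface protein that lymphatic endothelium and mesothelium carry too. Aquaporin 5 (Aqp5, chr15:99590782-99594829, + strand) is a water channel, and CLIC5 (chr17:44188584-44280172, + strand) is an intracellular chloride channel protein bound to the cortical actin cytoskeleton. Caveolin 1 (Cav1, chr6:17306335-17341452, + strand) coats caveolae in AT1 cells and, in abundance, in endothelium. EMP2 (chr16:10281749-10313968, - strand) is a tetraspan membrane protein. AKAP5 (chr12:76324891-76334153, + strand) anchors protein kinase A near the membrane. Rtkn2 lies on chr10:67979570-68059740 (+ strand). HOPX (chr5:77086988-77115121, - strand) is a homeodomain protein that does not bind DNA.

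Per kilobase of annotated exon, Ager was the highest member in the controls of all 4 tables, from a mean of 18582 to 21765 normalized counts per kb. Cav1 (7989 to 8896), Emp2 (5937 to 7055) and Hopx (2300 to 2987) followed in that order in each table. The ranges of neighbours in this order did not overlap in the controls, except for Cav1 and Emp2 in the P2 Vangl2 table. Clic5, Aqp5 and Akap5 came next, and Clic5 overlapped Aqp5 in 3 of the 4 tables. Pdpn and Rtkn2 were lowest, between 737 and 1181 normalized counts per kb. Between 1693 and 48538 reads lay behind each member in each lung, so counting error was at most 2.43%.

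Hopx, Emp2 and Clic5 varied most alike among lungs, as described below, and their promoters are shown for that reason. The 250 bases before the RefSeq start site (build GRCm38.p6) are written 5' to 3' on the gene's strand, and capitals mark GGGCGG or its reverse complement CCGCCC, the GC box that KLF and SP factors bind.
Hopx, chr5:77115124-77115373, - strand: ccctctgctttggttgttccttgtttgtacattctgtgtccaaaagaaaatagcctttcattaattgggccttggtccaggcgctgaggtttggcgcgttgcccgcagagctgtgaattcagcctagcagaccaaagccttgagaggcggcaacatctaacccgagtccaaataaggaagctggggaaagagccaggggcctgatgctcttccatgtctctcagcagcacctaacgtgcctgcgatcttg
Emp2, chr16:10313969-10314218, - strand: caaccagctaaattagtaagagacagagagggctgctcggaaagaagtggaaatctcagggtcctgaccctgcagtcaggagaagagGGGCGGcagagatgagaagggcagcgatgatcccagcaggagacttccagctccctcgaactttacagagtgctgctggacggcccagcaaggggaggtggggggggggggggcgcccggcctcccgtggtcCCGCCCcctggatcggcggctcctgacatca
Clic5, chr17:44188322-44188571, + strand: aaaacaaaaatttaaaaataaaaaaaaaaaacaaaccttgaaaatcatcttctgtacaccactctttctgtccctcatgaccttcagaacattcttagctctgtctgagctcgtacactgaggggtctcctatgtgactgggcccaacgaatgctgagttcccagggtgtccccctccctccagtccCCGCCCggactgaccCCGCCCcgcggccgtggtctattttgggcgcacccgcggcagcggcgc
The GC box was found 2 times in the Emp2 window, 2 times in the Clic5 window and not in that of Hopx. Over all members with an entry it was in 5 of 10 windows (Hopx and Cav1 each have 2 start sites), against 32.7% of the 32851 windows of the table. The TEAD motif CATTCC (reverse complement GGAATG, in 12.6% of all windows) and the NKX2-1 motif CAAGTG (reverse complement CACTTG, in 11.6%) were in 0 of the 10 windows, which says only that these letters do not occur there. With matches to 1 of the 3 motifs only, no overlap between motifs arose, and the GC box was searched after the other motifs had given no match. The Rtkn2 promoter is not shown.

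The first comparison asks how the AT1 genes stood in lungs that lost epithelial Vangl2, at P2. Hopx rose 1.70-fold, and 8 of the 9 members had a log2 fold change above 0, with a median of 0.46 against 0.00 over all genes tested, of which 50.1% lay above 0. Hopx was at 4877, 4061 and 4647 normalized counts in the controls and at 9419, 7259 and 6351 in the mutants. Every mutant lay above every control. The log2 fold change was 0.75 (SE 0.15, adjusted p = 0.0436, limma), and Hopx was the 1 member of 9 that passed. Over all genes, 3.59% were called in either direction and 1.5% were called higher. Fewer AT1 cells and less RNA per cell cannot be told apart in whole lobes, nor can more cells and more RNA per cell.

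Emp2, Clic5 and Ager were also higher in every P2 Vangl2 mutant than in every control, but did not pass by limma. DESeq2 on the recovered reads called Hopx, Emp2 and Clic5 (adjusted p = 0.000617, 0.00258 and 0.00361) among 1913 genes. Emp2 was at 26795, 23102 and 22913 normalized counts in controls and at 37560, 33060 and 31759 in mutants. The difference was 0.49 on the log2 scale (95% confidence interval 0.19 to 0.79, adjusted p = 0.0810). Clic5 was at 14543, 12454 and 10470.4 in controls and at 23385, 20049.5 and 16781 in mutants, and differed by 0.68 (0.30 to 1.07, adjusted p = 0.0668). The mutant means were 1.41 and 1.61 times the control means. Ager was at 33555, 28045 and 28117 in controls and at 50169, 35380 and 37789 in mutants (log2 fold change 0.45, adjusted p = 0.175). Groups that did not overlap, with mutants higher, made up 14.6% of all genes and 4 of the 9 members.

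The other 5 members overlapped between the groups at P2. Pdpn (log2 fold change 0.53, adjusted p = 0.201) and Rtkn2 (0.46, 0.195) had medians among the mutants above the highest control. Rtkn2 was at 5372, 3853 and 4806 normalized counts in controls and at 7594, 6924 and 4948 in mutants. For Aqp5 a single mutant lay above all controls, with mutants at 3016, 3099.8 and 5079 and controls at 3271, 2382 and 3725. Cav1 (0.16, adjusted p = 0.578) and Akap5 (-0.0033, adjusted p = 0.993) were nearly level. An unadjusted p under 0.05 with mutants higher was reached by 6 members, against 11.7% of all genes (22.5% in either direction). The call on Hopx was lost without any of the 3 controls or without mutant replicate 2 (adjusted p = 0.103 to 0.208), and in a joint fit with the P2 Ror2 lungs (0.103). Without mutant replicate 3, Hopx, Rtkn2, Emp2 and Clic5 passed (adjusted p = 0.0137 to 0.0402). How many of all genes passed without that lung is not given here, so no share stands beside these members. Calls over all genes also moved widely when a lung was left out, as given below, so these calls are not read as particular to the members.

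**Figure D1:**
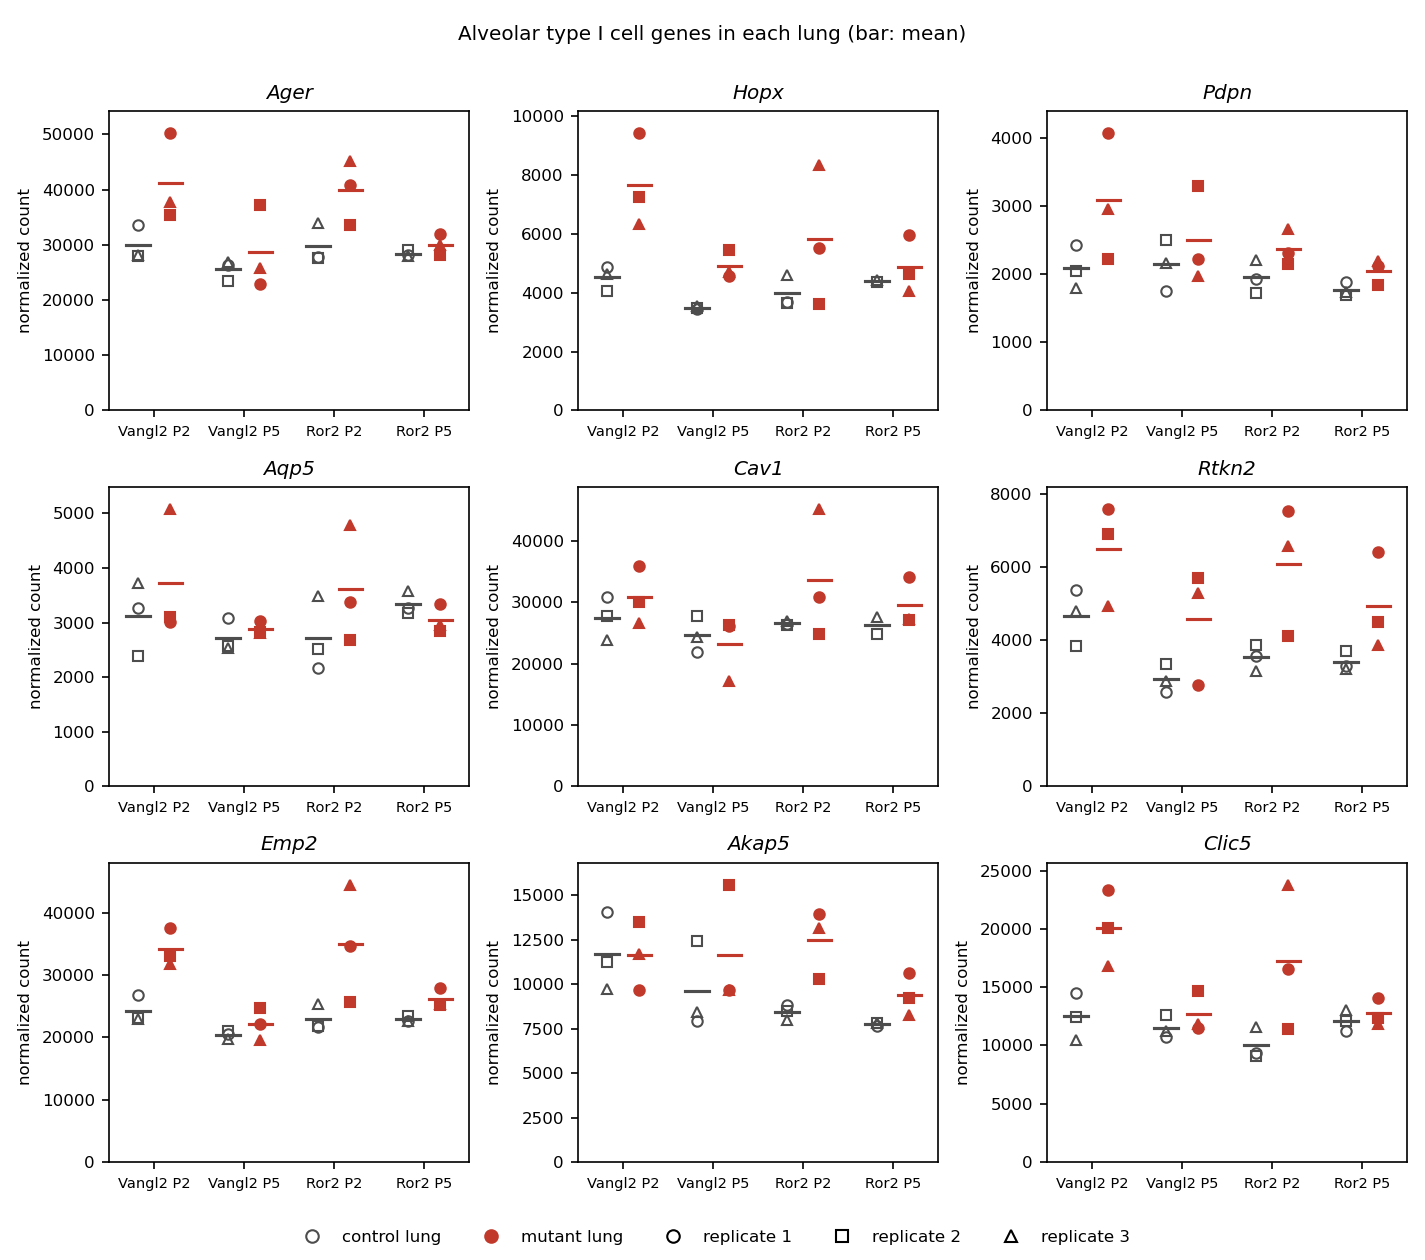
Normalized counts of the 9 alveolar type I genes in each lung (vertical axes, starting at 0) for the 4 comparisons, with open grey points for control lungs, filled red points for mutant lungs, marker shape for the replicate number and bars for group means. Hopx in P2 Vangl2 mutants sits between 6351 and 9419, above all 3 controls, whereas Aqp5 overlaps between groups in every comparison.

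At P5 no member passed in Vangl2 mutants by limma, and DESeq2 on the recovered reads called 1, Hopx (adjusted p = 0.0129), among 1199 genes. The median log2 fold change was 0.14, 8 of 9 were above 0 (50.3% of all genes), and 0.563% of all genes were called (98 of 17410), 0.534% as higher. Hopx was again above every control, at 4565, 5446 and 4716 normalized counts in mutants against 3456, 3470.1 and 3536 in controls. The control SD was 42.8 normalized counts, and the log2 fold change was 0.49 (SE 0.13, adjusted p = 0.120). Same-numbered lungs of this comparison deviated from their group means together, and a fit that took replicate as a block called Hopx (adjusted p = 0.0382) among 1558 genes. That pairing was read from these same values, so the call is not separate support for a change in Hopx. Groups did not overlap, with mutants higher, for this 1 member of 9 and for 13.2% of all genes. An unadjusted p under 0.05 was likewise reached by Hopx alone, against 10.4% of all genes with mutants higher and 18.8% in either direction.

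Rtkn2 had the largest difference of the members at P5 in Vangl2 mutants, 0.59 on the log2 scale (95% confidence interval -0.04 to 1.21, adjusted p = 0.293). It was at 2769, 5708 and 5305 normalized counts in mutants and at 2578, 3351 and 2871 in controls. Mutant replicate 1 was thus within the control range and the other 2 mutants were well above it. Ager was at 22918, 37220 and 25793 in mutants and at 26302, 23489 and 26805 in controls. Here a single lung, mutant replicate 2, lay above the controls, and without it the log2 fold change of Ager turned from 0.14 to -0.07 and that of Pdpn from 0.20 to -0.02. Emp2 (0.11), Clic5 (0.13), Akap5 (0.27), Aqp5 (0.09) and Cav1 (-0.11) overlapped between the groups, with adjusted p from 0.624 to 0.852. With quantile normalization Cav1 turned to 0.06 and the member median was 0.30, while the median over all genes moved by -0.04.

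In Ror2 mutants at P2 all 9 members had a log2 fold change above 0, with a median of 0.48 (49.4% of all genes lay above 0). None passed, and neither did any other gene: 0% of 17541 genes were called by limma and 0 by edgeR, though 3380 (19.3%) had an unadjusted p under 0.05 and DESeq2 called 666. An unadjusted p under 0.05 was reached by 6 members, against 9.55% of all genes with mutants higher, and DESeq2 called Rtkn2, Akap5 and Clic5. Rtkn2 was at 7532, 4122 and 6598 normalized counts in mutants and at 3562, 3878 and 3167 in controls. All mutants lay above all controls, by 0.74 on the log2 scale (SE 0.22, adjusted p = 0.203). Akap5, which was level in P2 Vangl2 mutants, was at 13921, 10307 and 13173 in mutants against 8810, 8498 and 7951 in controls (0.56, SE 0.13, adjusted p = 0.203). Emp2 was at 34705, 25641 and 44447 in mutants against 21732, 21883 and 25274 in controls (0.57, SE 0.20, adjusted p = 0.216). Groups did not overlap, with mutants higher, for these 3 members and for 13.4% of all genes.

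Clic5 had a difference of the same size as Rtkn2 in P2 Ror2 mutants, 0.73 (SE 0.25, adjusted p = 0.216), with a wider spread. Its mutants were at 16599, 11382 and 23775 normalized counts and its controls at 9382, 9094 and 11577. Mutant replicate 2 alone overlapped the controls. The same lung kept Ager (40858, 33592 and 45098 against 27747, 27679.5 and 34017) and Hopx (5510, 3633 and 8347 against 3683, 3662 and 4613) from separating. It was the lowest of the 3 mutants for all 9 members. It was also the only mutant of the 3 with a high Xist value (24766 normalized counts against 103 and 283), and the part of sex in its low values was not tested. In other groups the order was mixed. The only high-Xist lung was highest for 8 of 9 members in P2 Vangl2 controls and lowest for 5 in P2 Ror2 controls. The only low-Xist lung was highest for 7 in P2 Vangl2 mutants and lowest for 5 in P5 Vangl2 mutants. Without mutant replicate 2 of P2 Ror2, 4 members passed, namely Rtkn2 and Akap5 (both with adjusted p = 0.0375), Clic5 (0.0423) and Emp2 (0.0459), beside 859 genes in all.

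In Ror2 mutants at P5 the member median was 0.16, with 8 of 9 above 0 (50.6% of all genes). No member was called by limma, against 0.128% of all genes (22 of 17179), 0.064% as higher. An unadjusted p under 0.05 was reached by 3 members, against 10% of all genes with mutants higher and 18.4% in either direction. DESeq2 on the recovered reads called 1 member, Rtkn2 (adjusted p = 0.0448), among 799 genes. Rtkn2 was at 6418, 4490 and 3878 normalized counts in mutants and at 3293, 3698 and 3199 in controls, which differ by 0.51 on the log2 scale (SE 0.17, adjusted p = 0.195). Emp2 was at 27878, 25121 and 25278 in mutants and at 22652, 23436 and 22687 in controls (0.19, SE 0.09, adjusted p = 0.308). Akap5 was at 10590.4, 9188 and 8287 in mutants and at 7623, 7801 and 7825 in controls (0.26, SE 0.10, adjusted p = 0.219). In these 3 members every mutant lay above every control, as in 15.6% of all genes. Aqp5 lay below its controls on average, by -0.14 (adjusted p = 0.404), the only member under 0 here. Hopx (0.13) and Cav1 (0.16) were fitted on 2 controls, since control replicate 1 has no usable value for them.

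**Figure D2:**
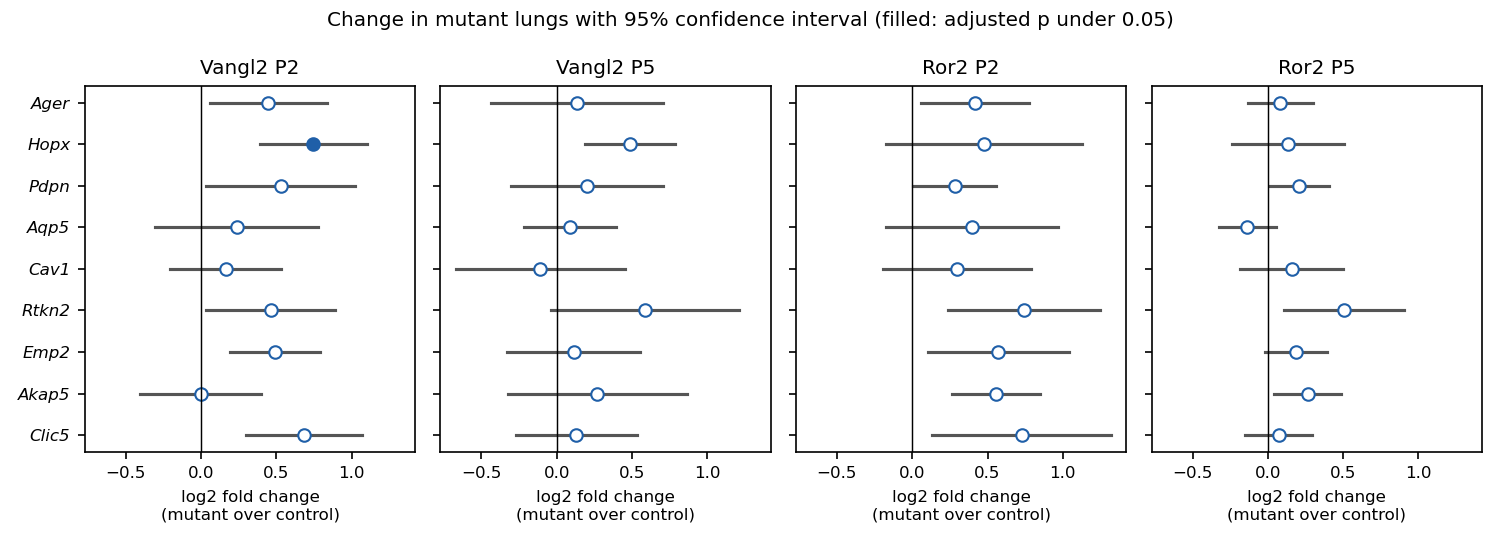
Log2 fold changes of the 9 members (mutant over control, horizontal axes) with 95% confidence intervals from limma in the 4 comparisons, with a filled point where the adjusted p is under 0.05. The only filled point is Hopx in P2 Vangl2 mutants (0.75), and at P5 the interval of Hopx in Vangl2 mutants (0.19 to 0.79) lies above 0 whereas that of Rtkn2 (-0.04 to 1.21) crosses it.

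The mutant-control differences were next set against each other between ages and between mutants, each with its own controls. The difference was lower in value at P5 than at P2 for 7 of 9 members in Vangl2 mutants and for 9 of 9 in Ror2 mutants, by a median of -0.27 and -0.33 on the log2 scale. The members varied together from lung to lung, as described below, so these are not counts of independent genes. The share of all genes lower at P5 is not given here. With quantile normalization the member medians at P2 and P5 lay closer in Vangl2 mutants (0.35 and 0.30, in place of 0.46 and 0.14) than in Ror2 mutants (0.41 and 0.20, in place of 0.48 and 0.16). None of these changes passed over all genes (lowest adjusted p = 0.578 and 0.516), and 0 genes of any kind were called by limma in either test, with 1442 (8.45%) and 1616 (9.51%) genes at an unadjusted p under 0.05. Clic5 had the largest change in both, -0.55 in Vangl2 mutants (95% confidence interval -1.08 to -0.02) and -0.66 in Ror2 mutants (-1.30 to -0.01). Its unadjusted p was 0.0421 and 0.0469. Between the 2 mutants at P2, Akap5 differed most, by -0.56 (Vangl2 minus Ror2, interval -1.06 to -0.06, unadjusted p = 0.0314, adjusted p = 0.946), and the other 8 members differed by between -0.28 and 0.27. At P5 the members differed by between -0.27 and 0.36, with an adjusted p of at least 0.998. Over all genes limma called 0 at P2 and 2 at P5 (0.0118%), with 788 (4.6%) and 798 (4.73%) at an unadjusted p under 0.05. A p that missed the threshold here does not show that ages or mutants were alike.

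Within a group the members moved together from lung to lung. In P2 Vangl2 mutants replicate 1 was the highest of the 3 for 7 of 9 members, in P5 Vangl2 mutants replicate 2 for 8, in P2 Ror2 mutants replicate 3 for 7, and in P5 Ror2 mutants replicate 1 for 8. Averaged over the members, the log2 level above the control mean was 0.57, 0.35 and 0.33 in the 3 P2 Vangl2 mutants and 0.07, 0.48 and 0.09 in the P5 Vangl2 mutants. It was 0.54, 0.11 and 0.83 in P2 Ror2 mutants and 0.35, 0.09 and 0.06 in P5 Ror2 mutants. Control lungs lay between -0.11 and 0.18. Without the highest lung the member median was 0.34 in P2 Vangl2 mutants, 0.03 in P5 Vangl2 mutants, 0.32 in P2 Ror2 mutants and 0.05 in P5 Ror2 mutants, so at P5 most of the median rested on 1 lung in each mutant.

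As a measure of likeness, Pearson's r was taken over 23 lungs between log2 values centred on their group means, a description that carries no test, since lungs share their mixture of cells and their library. Of the 36 pairs of members 35 were above 0 and 19 above 0.5, with a median of 0.51. Emp2 and Clic5 were most alike (r = 0.94), followed by Emp2 and Hopx (0.91). Aqp5 stood apart, with r = 0.25 against the mean of the other 8, whereas Emp2 reached 0.92, Clic5 0.91 and Hopx 0.86. The median r of all 16723 genes with the member mean was -0.00. Among the compared lists, AT2 genes lay between -0.16 (Sftpc) and 0.86 (Slc34a2). The member Cav1, itself part of the mean, was at 0.81. The 5 genes outside the lists that followed the member mean most closely were Tmem167b (0.91), Arhgef26 (0.91), Ocln (0.91), Fam134b (0.89) and Tspan15 (0.88). OCLN is occludin, a tight junction protein. None of the 5 passed in any comparison, the nearest being Fam134b in P2 Vangl2 mutants (log2 fold change 0.68, adjusted p = 0.0510).

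**Figure D3:**
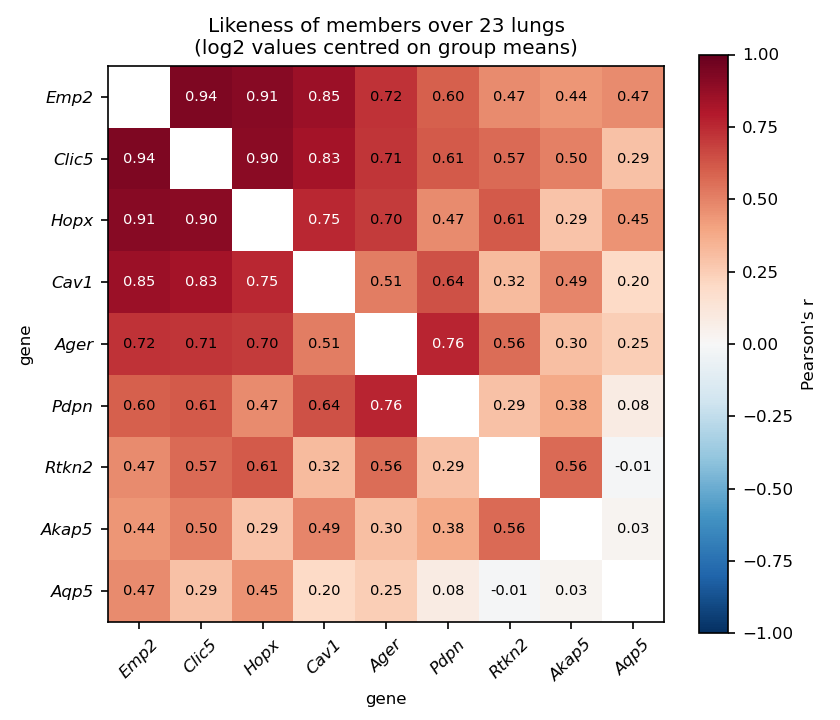
Pearson's r between each pair of members (rows and columns) over 23 lungs, on log2 values centred on group means, from blue at -1 to red at 1. Emp2, Clic5 and Hopx form the block with the highest values (0.90 to 0.94), and the Aqp5 row is the palest.

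A wider list of 17 genes linked to AT1 cells was read in the same fits. In P2 Vangl2 mutants 3 of 17 passed, all higher, against 3.59% of all genes: Col4a3 (log2 fold change 0.62, SE 0.11, adjusted p = 0.0326), a basement membrane collagen chain, Krt7 (0.62, SE 0.10, adjusted p = 0.0326), a keratin, and Lmo7 (0.87, SE 0.17, adjusted p = 0.0408), a protein of adherens junctions. Lmo7 was at 19023, 15797 and 12961 normalized counts in mutants and at 10363, 7558 and 8159 in controls. The list median was 0.39 there, 0.26 in P5 Vangl2 mutants, 0.40 in P2 Ror2 mutants and -0.04 in P5 Ror2 mutants, with none called in the last 3. Of the 17, 10 lay wholly above their controls in P2 Vangl2 mutants, 3 in P5 Vangl2 mutants and 7 in P2 Ror2 mutants, against 14.6%, 13.2% and 13.4% of all genes. In each of these comparisons 1 lay wholly below. In P5 Ror2 mutants 6 of the 17 lay wholly below their controls and 2 wholly above, against 14.3% and 15.6% of all genes. Spock2, a matrix proteoglycan, was among the 6 at 4706, 4715 and 5193 normalized counts against 6460.3, 6515 and 7648 (-0.49, adjusted p = 0.0878). Elsewhere its log2 fold change was 0.46 in P2 Vangl2 mutants, -0.16 in P5 Vangl2 mutants and 0.38 in P2 Ror2 mutants.

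Igfbp2, an insulin-like growth factor binding protein that marks AT1 cells late in their differentiation, went the other way from the members in every comparison. At P5 it was at 1406, 1919 and 755 normalized counts in Vangl2 mutants against 3900.2, 4347 and 3534 in controls, and at 614, 1400.5 and 2337 in Ror2 mutants against 4722, 5312 and 5733. At P2 it was at 686, 876 and 1192 in Vangl2 mutants against 1240 to 2167 in controls, and at 563 to 854 in Ror2 mutants against 1331 to 2217. No mutant lung reached the lowest of its own controls in any of the 4 tables. The log2 fold changes were -0.95 and -1.63 in Vangl2 mutants and -1.24 and -2.05 in Ror2 mutants, at P2 and P5. None passed (adjusted p = 0.0842, 0.0646, 0.203 and 0.107). Of 16723 genes tested in all 4 tables, 129 (0.771%) were lower without overlap in all 4, Igfbp2 among them, and 121 (0.724%) were higher without overlap in all 4, with 0 members among these. Groups that did not overlap, with mutants lower, made up 14.9%, 12.5%, 12.2% and 14.3% of all genes in single tables, in the order P2 and P5 Vangl2, P2 and P5 Ror2. Gramd2, an AT1 marker of membrane contact sites, lay on the members' side in all 4 comparisons (0.76, 0.70, 0.92 and 0.60 in the order P2 and P5 Vangl2, P2 and P5 Ror2). So did Cyp2b10, a cytochrome P450 at low level (1.27, 1.20, 0.55 and 1.59), and neither gene passed. Spock2, and Igfbp2, Gramd2 and Cyp2b10 in some comparisons, were named after their values were seen.

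**Figure D4:**
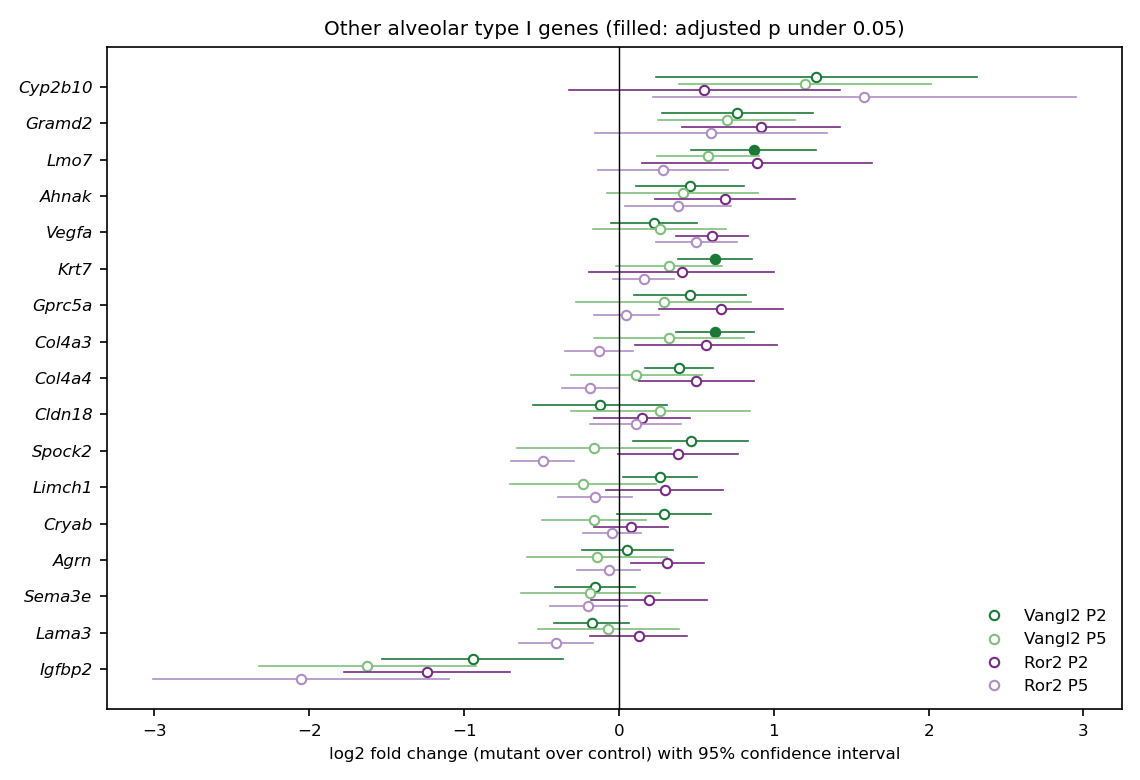
Log2 fold changes of the 17 other genes linked to AT1 cells (mutant over control) with 95% confidence intervals from limma, ordered by their mean over the 4 comparisons, with filled points where the adjusted p is under 0.05. Igfbp2 lies below 0 in all 4 comparisons (-0.95 to -2.05), and the 3 filled points are Lmo7, Krt7 and Col4a3 in P2 Vangl2 mutants.

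The partners of Cav1 in caveolae and the YAP-TEAD and NKX2-1 axis, which holds no member, were read next. Of 6 genes that build caveolae with Cav1, 0 of 6 passed by limma in any comparison, with 1 to 2 at an unadjusted p under 0.05 in each, and their medians lay between -0.14 and 0.12. Cav2, the partner of caveolin 1, was above 0 in all 4 (0.39, 0.34, 0.49 and 0.36), and Ehd2, which holds the caveolar neck, was lowest in P5 Vangl2 mutants (-0.54, adjusted p = 0.208). Of 16 genes of the YAP-TEAD and NKX2-1 axis, Klf5, an epithelial zinc finger factor, rose in P2 Vangl2 mutants (1.04, SE 0.21, adjusted p = 0.0408, against 3.59% of all genes called) and no other gene of the list passed in any comparison. The list median was 0.15 and -0.21 in Vangl2 mutants and 0.36 and 0.01 in Ror2 mutants, at P2 and P5. Of the 16 genes, 14 and 4 lay above 0 in Vangl2 mutants and 14 and 8 in Ror2 mutants. The lowest log2 fold change was -0.87, in P5 Vangl2 mutants. Of 16723 genes tested in all 4 comparisons, 121 (0.724%) were higher in mutants without overlap in all 4. Nkx2-1 itself, singled out after its values were seen, was higher in every mutant than in every control of its table in all 4 comparisons. It was at 4798 to 5720.2 normalized counts in controls and 6215 to 6875 in mutants for P2 Vangl2, and at 3185 to 3565 and 4227 to 6011 for P5 Vangl2. For Ror2 it was at 4026 to 4645 in controls and 5176 to 7489.6 in mutants at P2, and at 3025 to 3228 and 3437 to 5474 at P5. The differences of 0.32, 0.53, 0.49 and 0.49 on the log2 scale did not pass (adjusted p = 0.128, 0.151, 0.203 and 0.179).

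Genes that epithelial cells share, and those of AT2 cells, were read in the same fits. All 8 pan-epithelial genes were higher in every P2 Vangl2 mutant than in every control, with a median of 0.93, and Krt18 (1.03, adjusted p = 0.0274), Krt19 (1.09, 0.0387) and Epcam (0.51, 0.0494) passed. Of all genes in that comparison, 14.6% lay wholly above their controls and 3.59% were called. Elf3 passed in P5 Vangl2 mutants (1.32, adjusted p = 0.0201), where the list median was 0.64, and Krt18 in P5 Ror2 mutants (0.67, adjusted p = 0.0302), where it was 0.44. The share of all genes called was 0.563% in P5 Vangl2 mutants and 0.128% in P5 Ror2 mutants. In P2 Ror2 mutants none of the 8 passed and the median was 0.36. Summed over the 8 genes, control lungs held 13881 to 15963 normalized counts and P2 Vangl2 mutants 21607 to 30567. These keratins are made by AT1 cells among others. Of 9 AT2 genes, Sftpa1 (1.89), Sftpd (1.55) and Slc34a2 (0.63) rose in P2 Vangl2 mutants (adjusted p = 0.0329, 0.0248 and 0.0394, against 3.59% of all genes called), whereas Sftpc was at -0.05. The AT2 medians were 0.41 and 0.48 in Vangl2 mutants and 0.28 and -0.18 in Ror2 mutants, at P2 and P5, with none called in the last 3. The part of epithelial content in the member values was not tested.

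Markers of cells that share members with AT1 cells were read beside them. Endothelial genes, 12 in all, had medians of 0.00 and -0.49 in Vangl2 mutants and 0.23 and 0.04 in Ror2 mutants, at P2 and P5, with 0 of 12 called by limma in each and 5 lower without overlap in P5 Vangl2 mutants, against 12.5% of all genes. There Cdh5 (-0.74, adjusted p = 0.15) and Kdr (-0.70, 0.20) were lowest, and the summed level was 52407 to 83678 normalized counts in mutants against 87212 to 96712 in controls. Cav1 was the only member under 0 in that comparison (-0.11, adjusted p = 0.852, limma), and its groups overlapped. Leaving out each lung in turn gave -0.21 to 0.09 for Cav1, so its direction was not settled. The part of endothelium in the Cav1 values was not tested. The 5 mesothelial genes had medians of 0.21, 0.60, 0.01 and 0.19, and the 4 lymphatic genes tested had medians of 0.28, -0.03, 0.27 and 0.18, in the order P2 and P5 Vangl2, P2 and P5 Ror2, with none called. Ccl21a, the fifth lymphatic gene, was listed at 0 in all lungs. Summed mesothelial levels were uneven among mutants. P5 Ror2 mutant replicate 1 held 8597 normalized counts against 2569 and 2119 in the others, and P2 Ror2 mutant replicate 3 held 9499 against 6041 and 4658. These lungs were also the highest for most members. In Vangl2 mutants replicate 3 was highest (13553 at P2 and 7291 at P5), which was not the highest lung for most members. The part of mesothelium in the member values was not tested. Neutrophil genes rose in Vangl2 mutants, with 7 of 9 called at P2 (median 1.43) and 3 of 9 at P5 (median 1.91), among them Retnlg (1.43 and 2.68). The share of all genes called was 3.59% at P2 and 0.563% at P5. None passed in Ror2 mutants by limma, where the medians were -0.01 and 0.55. Of the P2 Ror2 lungs control replicate 3 stood apart, with a summed level of 27825 normalized counts against 5422 and 7862 in the other controls and 6699 to 8453 in mutants. The summed level in P2 Vangl2 lungs was 10311 to 13665 normalized counts in mutants and 3595 to 5544 in controls.

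**Figure D5:**
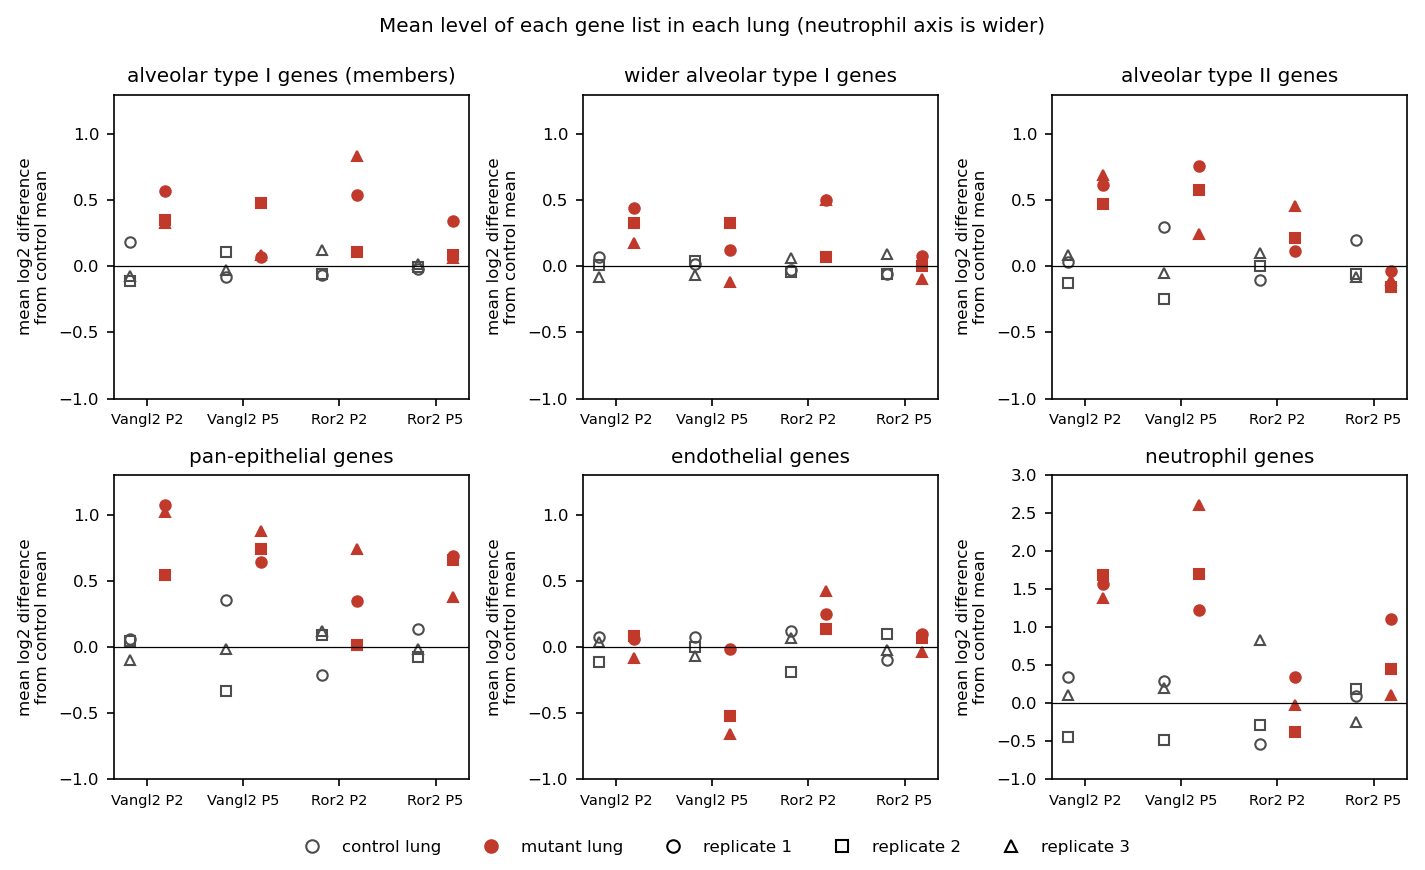
Mean over each gene list of the log2 level in each lung minus the control mean (vertical axes) for 6 lists in the 4 comparisons, with open grey points for control lungs, filled red points for mutant lungs and marker shape for the replicate number. The members reach 0.83 in P2 Ror2 mutant replicate 3, pan-epithelial genes lie between 0.55 and 1.07 in P2 Vangl2 mutants, and endothelial genes lie between -0.66 and -0.02 in P5 Vangl2 mutants.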

How the data were processed

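RNA from the left lung lobes of 24 mice was sequenced by the authors, with 3 lungs in each of 8 groups. In the tables as deposited, the signal values are reads counted per gene on mm10 and divided by a DESeq2 size factor for each lung, according to the submitters' processing notes, and are called normalized counts. The aligner, counter and annotation are not given in the sources used here. The deposited log2 fold changes, the p-values and the score (the test statistic) are the authors' own comparisons and were not used.

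Each table of 6 lungs was fitted with limma 3.58.1 (R 4.3.3, empirical Bayes with trend) on log2(normalized count + 1) for genes with a value of at least 1 in at least 3 lungs. The Benjamini-Hochberg adjustment ran over every gene in a fit, calls needed an adjusted p under 0.05, and each adjusted p is from limma unless another tool is named. Differences between contrasts were tested over 12 lungs. An exact permutation test of 3 against 3 lungs cannot go below p = 0.1, so none is given. In control replicate 1 of the P5 Ror2 comparison, 8085 genes on chromosomes 5 to 9 and X were set to missing. Whole reads were recovered in all 24 lungs (100% of values within 0.02 of a whole read) for edgeR 4.0.16 and DESeq2 1.42.0 as alternatives. In control replicate 3 of P5 Vangl2 and controls 2 and 3 of P5 Ror2 the size factor lies near 1 (0.992, 0.996 and 1.01), so recovery there rests on its estimate and the count tests of both P5 tables are less sure. Other alternatives were pseudocounts of 0.5 and 8, no filter, a mean of at least 10, quantile normalization, a replicate block, a joint fit of an age and leaving out each lung. The limma code was tested on simulated data.

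The members and gene lists were chosen with earlier results of these data known. From each list the text names called genes (at most 4 by smallest p) or, where none passed, up to 2 with the largest change, and it names the 5 genes outside the lists most like the member mean. Exceptions are marked. Same-numbered lungs of the P5 Vangl2 comparison correlated in their deviations from the group means (r = 0.38, 0.34 and 0.24), so the numbers were taken as pairing there, on the data alone. Promoters came from RefSeq (GRCm38.p6), with entries for 8 of 9 members.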

Additional observations from a re-analysis of the deposited data

How the results depend on the processing

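Of 558 recomputed member values, 527 kept their direction and their side of the threshold, 16 became called, 5 were no longer called (all Hopx in P2 Vangl2 mutants) and 10 turned sign. The turned values were Cav1 in P5 Vangl2 mutants with quantile normalization (0.0578), Hopx in P5 Ror2 mutants with the replicate block (-0.0207), and members near 0 when 1 lung was left out. Leaving out each lung gave -0.128 to 0.139 for Akap5 and -0.00741 to 0.375 for Aqp5 in P2 Vangl2 mutants. In P5 Vangl2 mutants it gave -0.0682 to 0.282 for Ager, -0.0190 to 0.353 for Pdpn and -0.212 to 0.0934 for Cav1. In P5 Ror2 mutants it gave -0.0207 to 0.258 for Hopx, -0.00161 to 0.125 for Clic5 and 0.0502 to 0.212 for the member median, the lowest without mutant replicate 1. Why values turned was not tested.

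Counts over all genes moved more. For P2 Vangl2 the 626 calls became 50 in the joint fit, 1913 with DESeq2 and 1 to 2333 with a lung left out. For P5 Vangl2 the 98 became 1006 in the joint fit, 1199 with DESeq2 and 0 to 54. For P2 Ror2 the 0 became 666 with DESeq2 and 0 to 859. For P5 Ror2 the 22 became 3 in the joint fit, 799 with DESeq2, 1 with nothing set to missing and 0 to 830, and with quantile normalization the share higher among calls was 37.5% in place of 50%. With nothing set to missing Hopx and Cav1 read 4.17 and 5.05 there, against a control without reads. The 2 genes whose P5 contrast differed between mutants became 0 to 4 (without Ror2 control replicate 3 and mutant replicate 1). The causes were not tested.

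With the replicate block, calls numbered 1558 for P5 Vangl2, 1 for P2 Ror2 and 1 for P5 Ror2. Clic5 was called in P2 Vangl2 mutants (adjusted p = 0.0249) and Hopx in P5 Vangl2 mutants, and pairing changed no other member call. The number of calls over all genes with the block in P2 Vangl2 is not given here, so no share stands beside the Clic5 call. Only in P5 Vangl2 was the same-numbered r the highest for every replicate. In P2 Ror2 the same-numbered r were also above 0 (0.03, 0.21 and 0.12), but replicate 1 had a higher r with another number. Counting error at the members was at most 2.43%, and what limited the number of calls over all genes was not tested.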
